A study of Rattus norvegicus with 30 samples.

Results

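The comparison concerned primary rat hepatocytes exposed for 48 h to 5000 µM acetaminophen, set against the same cells exposed for 48 h to 500 µM. Its 10 arrays, 5 per dose, were chosen by sample title from the 30 arrays of the series. Acetaminophen is a painkiller. Hepatocytes conjugate most of it with glucuronic acid or sulfate, and P450 enzymes oxidise the remainder to a reactive imine, which glutathione traps. Further wells were used beside them: 1% DMSO vehicle wells at 48 h, and wells of both doses and vehicle at 24 h, again 5 arrays per group. All wells held frozen hepatocytes of male Sprague Dawley rats bought from a supplier, plated on collagen, covered with Matrigel and dosed on day 3 of culture. The labels call the 5 wells of a group independent cultures and name no separate animals, so the p-values cover the spread between wells alone.

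Each value is a microarray signal of 1 probe set per gene on an arbitrary linear scale, and differences are given as log2 of 5000 over 500 µM with the standard error of the fit. A gene was called at a limma adjusted p (Benjamini-Hochberg over all 8530 genes tested) under 0.05, with n = 5 arrays per group except where fewer are stated. The number of arrays limits the precision. The median standard error over all genes was 0.10 on the log2 scale. Signals were scaled to a common level per array, so a lower value is a lower share of the RNA, and fewer cells of a type cannot be told apart from less RNA per cell. All 14 hepatocyte markers on the array were bright enough to be tested. Summed, they gave 485000 to 616400 in 5000 µM wells and 507800 to 604200 in 500 µM wells, and the ranges overlapped. Of the markers of other liver cells, 2 of 17 for Kupffer cells and leukocytes, 4 of 16 for stellate cells and fibroblasts, 3 of 13 for sinusoidal endothelium and 2 of 9 for cholangiocytes passed the brightness filter. The summed stellate signal was 8861 to 10600 in 5000 µM wells and 9081 to 11730 in 500 µM wells, with overlap, and the Kupffer and endothelial sums overlapped as well. The cholangiocyte sum did not, with 13110 to 14230 in 5000 µM wells and 12110 to 13000 in 500 µM wells, and 1 of its 2 tested markers was called higher by group means. The part of these cells in any result was not tested.

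The arrays of the 2 doses differed in a measure of RNA integrity, and values with it as a covariate are given below for each main gene list and for many of the genes. The array carries probe sets at the 3′ and 5′ ends of β-actin and GAPDH, and a higher 3′ over 5′ ratio is seen when RNA or its copies are shorter. The log2 ratio for β-actin was 1.21, 1.23, 1.29, 1.19 and 1.15 in 5000 µM wells, against 1.78, 1.81, 1.98, 2.00 and 1.74 in 500 µM wells. The groups did not overlap (difference -0.65, two-sided exact permutation p = 0.00794, the smallest that 5 against 5 allows, and 0.0159 adjusted over 8 such tests). GAPDH averaged 0.0855 ± 0.0315 in 5000 µM wells and 0.259 ± 0.0702 in 500 µM wells (SD, n = 5 each, exact permutation p = 0.00794). Against vehicle at 48 h (1.24 ± 0.106), the β-actin ratio of the 5000 µM wells gave an exact permutation p of 0.579 and that of the 500 µM wells 0.00794. Among the 48 h groups it was thus the 500 µM arrays that stood apart. High ratios were also seen in vehicle wells at 24 h (1.99, 1.96, 1.90, 1.54 and 1.49).

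**Figure D1:**
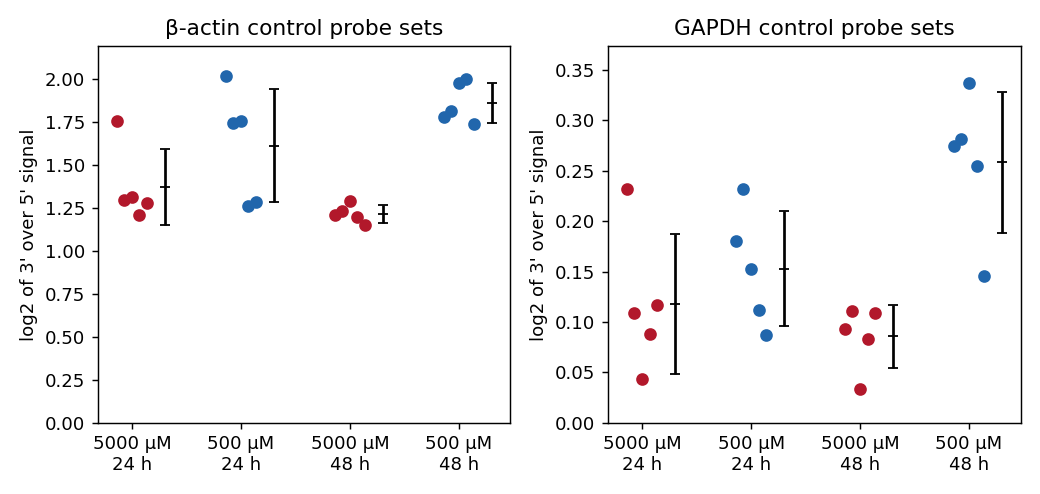
The log2 ratio of 3′ over 5′ signal for the β-actin (left) and GAPDH (right) control probe sets, 1 point per array, with mean and SD beside each group of 5. At 48 h the 5000 µM arrays had lower β-actin ratios (1.15 to 1.29) than the 500 µM arrays (1.74 to 2.00), while the 24 h groups overlapped.

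At 48 h, 4064 of 8530 genes were called, or 47.6%, of which 1657 were higher (19.4%) and 2407 lower (28.2%) in 5000 µM wells. Centring each array on its median turned this split to 760 higher of 3468. A difference of at least 2-fold was seen for 26 higher and 105 lower genes. With the β-actin ratio as a covariate, whose slope comes from all 30 arrays, 1782 genes were called (20.9%), 757 higher (8.87%) and 1025 lower, and 1541 genes (18.1%) were called in the same direction by both fits, 637 higher (7.47%) and 904 lower (10.6%). These 1541 are 37.9% of the calls made without the covariate. The large differences were kept more often, with 115 of the 131 genes at 2-fold or more called by both fits. With the side of a gap in the β-actin ratio as a block instead, a setting added after the data were seen, 2021 genes were called (23.7%), 850 higher (9.96%) and 1171 lower (13.7%). Below, "in both fits" means called in one direction with and without the covariate. The dose groups do not overlap in the ratio at 48 h, so the covariate separates dose from RNA quality only as far as its slope within groups holds. Within groups the ratio spread more at 24 h (SD 0.220 in 5000 µM and 0.329 in 500 µM wells) than at 48 h (0.0507 and 0.119). The slope thus leans on the 24 h arrays. Each 48 h group lay wholly on one side of the gap, so the block rests on the 24 h arrays alone. Whether either holds at 48 h was not tested.

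The 12 largest falls and rises described next were taken from the genes called with and without the covariate whose arrays did not overlap between the doses. Over all genes, 2806 did not overlap (32.9%), 1102 higher (12.9%) and 1704 lower in 5000 µM wells. Among the 12 falls were a secreted inhibin subunit, enzymes of bile acids, steroids and lysine, and an amino acid carrier. Inhbe, the inhibin βE subunit secreted by the liver, had signals of 815, 578, 553, 562 and 560 in 5000 µM wells, against 4100, 4392, 4885, 5165 and 5435 in 500 µM wells. It fell by 2.98 ± 0.12 on the log2 scale (limma adjusted p = 1.3e-18), and every 5000 µM array lay below every 500 µM array. The value with the covariate, -2.93, was nearly the same. Cyp7a1, which catalyses the limiting step in making bile acids, gave 494, 421, 549, 432 and 300 in 5000 µM wells and 1580, 1737, 1502, 2358 and 1706 in 500 µM wells. It fell by 2.03 ± 0.19 (limma adjusted p = 6.3e-10). Arhgef2, an activator of RhoA held on microtubules, had 836, 677, 603, 619 and 617 in 5000 µM wells and 2627, 2612, 3061, 2425 and 2823 in 500 µM wells, and it fell by 2.02 ± 0.12.

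The other 9 of the 12 falls ranged from enzymes and carriers to a receptor and a transcription factor. Cyp2c12, a steroid-hydroxylating P450, fell by 2.00 ± 0.34 and had the widest error of these. A single 5000 µM array read 49.3, against 282 to 505 on the other 4. Hsd3b5, a steroid dehydrogenase of male rodent liver, fell by 1.66 ± 0.15, and Aass, which opens lysine breakdown, fell by 1.63 ± 0.12. Slc7a1, a carrier of arginine and lysine, fell by 1.62 ± 0.11, although its 2 other probe sets gave only -0.28 and -0.10. Klkb1, which encodes plasma prekallikrein, fell by 1.61 ± 0.15, and Gucy2c, a guanylate cyclase receptor, fell by 1.65 ± 0.10. Znf750, a transcription factor of epidermal differentiation, fell by 1.95 ± 0.21. Poteml2 fell by 1.67 ± 0.10 and LOC100912629 fell by 1.59 ± 0.20.

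The 12 rises included a chromatin protein, an iron hormone and a brake on transcription elongation. Hist4h4, a histone H4 gene, had 1308, 1259, 1318, 1169 and 1223 in 5000 µM wells, against 313, 157, 395, 273 and 323 in 500 µM wells. It rose by 2.17 ± 0.20 (limma adjusted p = 4.3e-10), and by 1.71 with the covariate. Hamp, which encodes the iron hormone hepcidin, had 8286, 10633, 10337, 5332 and 7106 in 5000 µM wells and 2400, 2935, 2619, 1450 and 1871 in 500 µM wells. It rose by 1.89 ± 0.18 (limma adjusted p = 9.3e-10). Hexim1, which inhibits the elongation kinase P-TEFb, had 13202, 12248, 12758, 13076 and 13166 in 5000 µM wells and 4434, 3450, 4252, 4819 and 4335 in 500 µM wells. The arrays of each group lay close together, and the rise was 1.61 ± 0.09 (limma adjusted p = 2.8e-15). Gmnn, which encodes geminin, an inhibitor of DNA replication licensing, had 1240, 1222, 1373, 1139 and 1210 in 5000 µM wells and 503, 243, 431, 514 and 448 in 500 µM wells. It rose by 1.58 ± 0.17, and its other probe set by 0.84.

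Of the other rises chosen in this way, Cib2, a calcium and integrin binding protein, rose by 1.21 ± 0.10 and Sh3gl3, an endophilin, by 1.09 ± 0.17. Cxcl1, a neutrophil-attracting chemokine, rose by 1.19 ± 0.19, and by 0.72 with the covariate. Slc35a3, a Golgi carrier of UDP-N-acetylglucosamine, rose by 1.21 ± 0.15 and Adipor2, an adiponectin receptor, by 1.09 ± 0.14. With the covariate these 2 dropped to 0.54 and 0.55, and 1 other Adipor2 probe set gave -0.04. Apeg3 (1.29 ± 0.12), LOC100912031 (1.51 ± 0.12) and LOC102555217 (1.10 ± 0.10) completed the 12. Id2, an inhibitor of helix-loop-helix factors and a gene induced by bone morphogenetic proteins like Hamp, rose by 1.05 ± 0.10 and by 0.62 with the covariate.

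**Figure D2:**
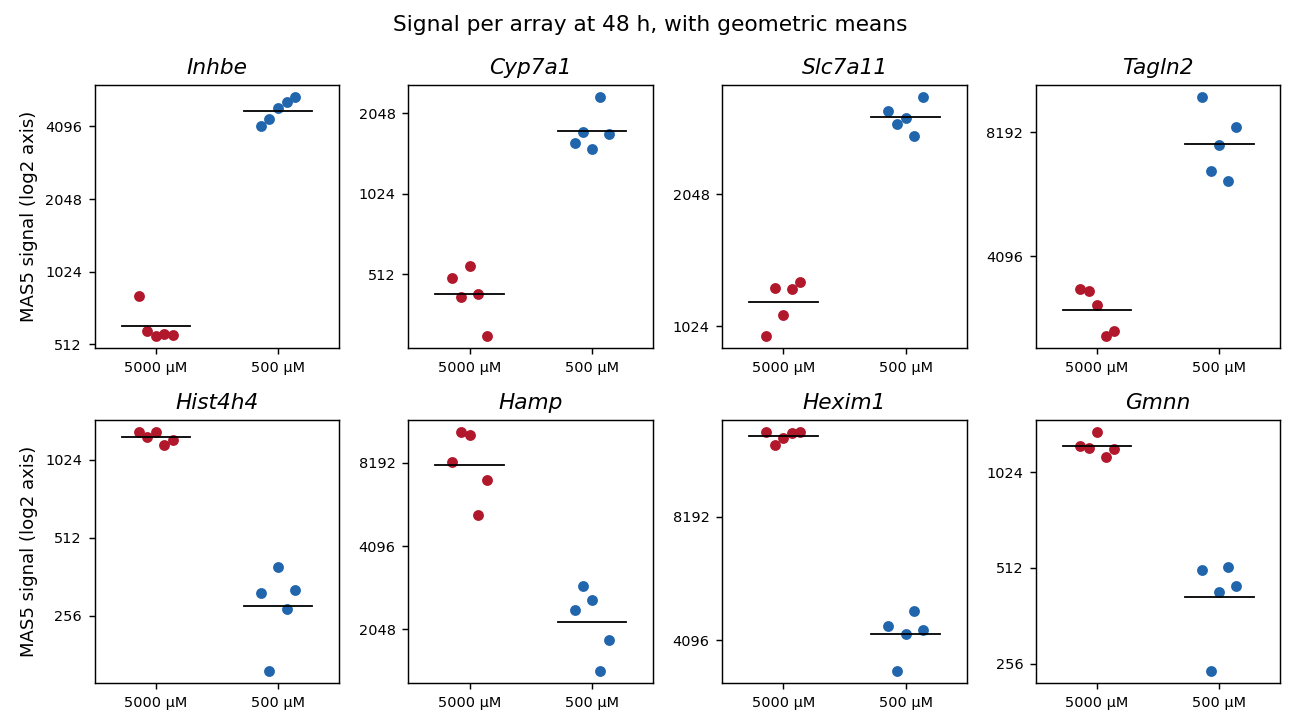
MAS5 signal on a log2 axis for 8 genes, 1 point per array, with the geometric mean of each group of 5 as a line. Inhbe, Cyp7a1, Slc7a11 and Tagln2 lay lower, and Hist4h4, Hamp, Hexim1 and Gmnn higher, on all 5 arrays of 5000 µM wells than on any array of 500 µM wells.

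Of the 33 gene lists of pathways and functions, the integrated stress response had the largest share of members that fell. In this response, kinases that sense amino acid shortage, unfolded protein or other stress phosphorylate eIF2α, general translation drops, and translation of the transcription factor ATF4 increases. ATF4, with partners such as CHOP, then raises genes for amino acid uptake and synthesis and for transfer RNA charging. Of the 45 list members tested, 38 fell and 1 rose, and the median difference was -0.60, against -0.04 over all genes. In both fits 31 fell and 0 rose, where 10.6% of all genes fell in both.

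Carriers, enzymes and regulators were all among the members that fell. Of the carriers, Slc7a11, which exchanges glutamate for the cystine used in glutathione synthesis, had 971, 1252, 1086, 1242 and 1292 in 5000 µM wells, against 3172, 2965, 3056, 2782 and 3416 in 500 µM wells. It fell by 1.40 ± 0.10 (limma adjusted p = 1.8e-12), and by 1.29 with the covariate. Of the enzymes, Aldh1l2, which oxidises mitochondrial 10-formyltetrahydrofolate, had 813, 613, 757, 847 and 966 in 5000 µM wells and 1785, 2220, 2418, 2187 and 2388 in 500 µM wells, and it fell by 1.47 ± 0.11. Of the regulators, Trib3, a pseudokinase induced by ATF4 and CHOP, had 2356, 2897, 1993, 2552 and 2330 in 5000 µM wells and 5644, 5633, 6910, 4588 and 6634 in 500 µM wells. It fell by 1.27 ± 0.15, and none of these genes overlapped between the doses. Fgf21, a fasting and stress hormone of the liver, fell by 1.19 ± 0.15, and the covariate carried this to -1.63.

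Smaller falls were seen for Ddit3, which encodes CHOP (-0.35 ± 0.08), and for Chac1, a glutathione-degrading enzyme (-0.58 ± 0.09). The transfer RNA synthetase genes Aars1 (-0.55 ± 0.07) and Tars1 (-0.83 ± 0.09) fell as well. Gdf15, a stress cytokine, was the member that rose, by 0.70 ± 0.15, with signals of 783 to 1119 in 5000 µM wells and 494 to 745 in 500 µM wells. With the covariate its value was 0.42 (limma adjusted p = 0.17). The transcript of Atf4 itself did not pass the test, with a difference of -0.02 and a 95% interval of -0.16 to 0.12, and with the covariate the value was -0.24 (limma adjusted p = 0.037). Atf4, Chac1, Aars1 and Tars1 were chosen for naming after their values were seen.

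**Figure D3:**
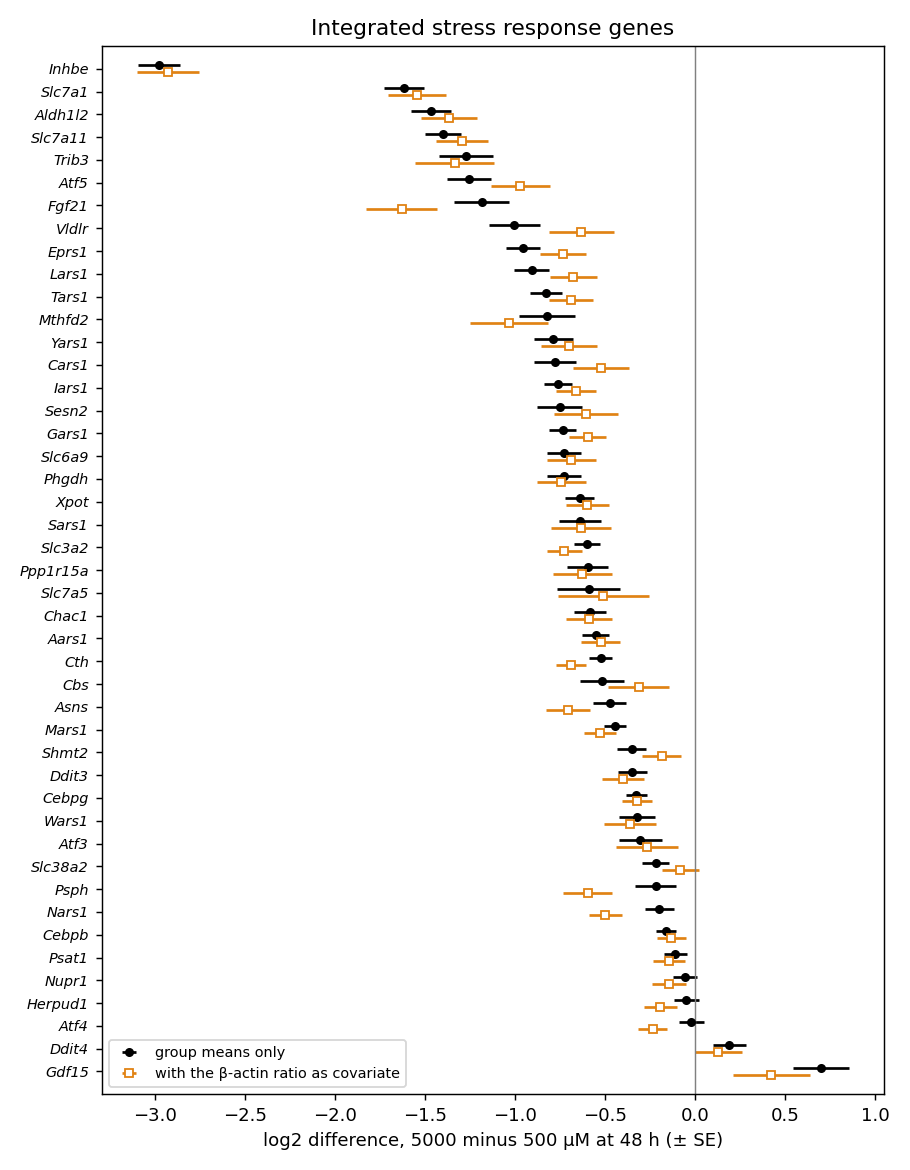
The log2 difference of 5000 minus 500 µM at 48 h with its SE for the 45 tested genes of the integrated stress response list, by group means alone (circles) and with the β-actin ratio as covariate (squares). Inhbe, Slc7a1, Aldh1l2 and Slc7a11 lay lowest under group means, Gdf15 lay highest, and the median of the list was -0.60.

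ATF4 binds with C/EBP partners at a composite element, and the sequence TGATGNAA was searched on both strands in the 250 bases before the annotated start of each gene (RefSeq, GRCr8). The match is shown for genes of each role that fell in both fits, with the matched bases in capitals and the strand of the gene 5′ to 3′. On genes where the element lies on the opposite strand it reads as its reverse complement.
Inhbe (chr7:65064690-65064769, minus strand): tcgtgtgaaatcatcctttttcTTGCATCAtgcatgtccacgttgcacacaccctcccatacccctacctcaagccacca
Slc7a1 (chr12:11664408-11664487, plus strand): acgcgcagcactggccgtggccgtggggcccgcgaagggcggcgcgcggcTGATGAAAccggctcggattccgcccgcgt
Trib3 (chr3:161275534-161275613, minus strand): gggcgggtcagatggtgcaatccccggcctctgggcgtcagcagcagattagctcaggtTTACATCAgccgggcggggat
Chac1 (chr3:126795928-126796007, plus strand): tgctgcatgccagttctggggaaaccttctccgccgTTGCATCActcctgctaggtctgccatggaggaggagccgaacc
Fgf21 (chr1:105221476-105221555, minus strand): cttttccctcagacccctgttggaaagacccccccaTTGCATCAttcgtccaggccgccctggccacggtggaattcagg
Aars1 (chr19:55908334-55908413, plus strand): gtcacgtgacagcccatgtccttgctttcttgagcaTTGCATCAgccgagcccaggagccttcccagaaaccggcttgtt
Tars1 (chr2:62114803-62114882, minus strand): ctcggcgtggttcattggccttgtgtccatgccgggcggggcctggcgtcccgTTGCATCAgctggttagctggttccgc
Of the 41 tested list members with a promoter in the RefSeq table, 12 held a match (29.3%), and of the 28 that fell in both fits 10 did. A match was present in 3.27% of all 27457 promoters and in 1.81% of the 7242 promoters of tested genes. The list was written as genes of the ATF4 and CHOP response, so its share of matches describes the list and is no test of these data. A match describes the letters only and is not evidence that a factor binds there.

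Most genes that build ribosomes fell, while few of those of the finished ribosome were called. Of 43 tested members of the ribosome biogenesis list, 28 fell and 3 rose (median -0.33), and in both fits 19 fell and 2 rose. Polr1b, a subunit of RNA polymerase I, had 342, 458, 394, 516 and 592 in 5000 µM wells and 828, 910, 1033, 947 and 1063 in 500 µM wells, and it fell by 1.08 ± 0.14. Utp20, of the small-subunit processome, fell by 1.14 ± 0.17, and Heatr1, which acts in pre-ribosomal RNA synthesis and processing, by 1.01 ± 0.14. Myc, a transcription factor that raises many genes of ribosome synthesis, had 3254, 3074, 3073, 3624 and 3463 in 5000 µM wells and 5415, 6072, 7201, 6739 and 7430 in 500 µM wells. It fell by 0.99 ± 0.09 (limma adjusted p = 6.6e-10), without overlap. Of 39 cytosolic ribosomal protein genes tested, 4 rose and 1 fell, and in both fits 0 did either. The median of that list was 0.07.

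Most cytoskeletal genes were lower in 5000 µM wells. Of 29 tested actin, tubulin and intermediate filament genes, 22 fell and 2 rose (median -0.40), and in both fits 13 fell and 1 rose. Tagln2, an actin-binding transgelin, had 3422, 3373, 3127, 2625 and 2709 in 5000 µM wells and 9972, 6577, 7638, 6228 and 8422 in 500 µM wells. It fell by 1.34 ± 0.11 (limma adjusted p = 1.6e-11), with -1.47 under the covariate. Tpm4, a tropomyosin, fell by 0.98 ± 0.07, and Zyx, a focal adhesion protein, by 1.00 ± 0.15, against -0.61 with the covariate. Flna, an actin crosslinker, fell by 1.09 ± 0.22, but its value with the covariate was -0.40 (limma adjusted p = 0.33).

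S100a6, a calcium-binding protein of the S100 family, had 2374, 1881, 1525, 1328 and 1669 in 5000 µM wells and 6161, 5778, 4629, 3801 and 3916 in 500 µM wells. It fell by 1.47 ± 0.12, and Anxa3, a phospholipid-binding annexin, by 0.53 ± 0.10. Anxa8, also an annexin, fell by 1.06 ± 0.22 with overlapping arrays, and its value with the covariate was -0.43 (limma adjusted p = 0.29). Of the 13 S100 and annexin genes tested, 7 fell and 1, S100a11, rose (0.24 ± 0.07, and 0.15 with the covariate, limma adjusted p = 0.33). In both fits 5 fell and 0 rose. Among 18 tested targets of YAP and TGF-β signalling, 4 rose and 6 fell by group means (median -0.07). These shares, 22.2% and 33.3%, lay near the 19.4% and 28.2% of all genes. In both fits 4 rose and 1 fell, where 7.47% of all genes rose and 10.6% fell. Ccn2, a matricellular growth factor, rose by 0.76 ± 0.09, and Serpine2, a protease inhibitor, by 0.56 ± 0.10.

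Among genes of bile acid handling, other P450s and conjugation, more members fell than rose, where 28.2% of all genes fell by group means and 10.6% in both fits. Of 26 tested bile acid and transport genes, 15 fell and 3 rose, with 11 and 2 in both fits. Beside Cyp7a1, the sinusoidal uptake carriers Slco1a4 (-1.33 ± 0.18) and Slco2b1 (-1.25 ± 0.13) fell, with other probe sets at -0.51 and -0.11. Abcb1a, a P-glycoprotein efflux pump, fell by 1.08 ± 0.17, and its other probe set gave -1.41. Of 19 other cytochrome P450 genes, 10 fell and 1 rose, and in both fits 8 fell and 1 rose. Cyp4f1 and Cyp4f4, which hydroxylate fatty acids and eicosanoids, fell by 1.11 ± 0.09 and 0.55 ± 0.08, and Cyp2c11, the male-specific steroid hydroxylase, fell by 0.77 ± 0.12.

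The P450 system that oxidises acetaminophen moved in both directions. Of its 13 tested genes 3 fell and 2 rose, near the shares of all genes (28.2% and 19.4%), and in both fits 2 fell and 0 rose. Cyp3a18 had 2217, 2071, 1866, 2386 and 2226 in 5000 µM wells and 4437, 4739, 4917, 5511 and 5536 in 500 µM wells, and it fell by 1.22 ± 0.06. Cyp2d2 fell by 1.10 ± 0.07. Cyp2e1, the enzyme best known for making the reactive metabolite, had 5789, 6540, 6848, 7432 and 8786 in 5000 µM wells and 3808, 5548, 5463, 5075 and 4886 in 500 µM wells. It rose by 0.51 ± 0.11 without overlap, with 0.33 under the covariate (limma adjusted p = 0.12). Cyp2a2 rose by 0.34 ± 0.10, with 0.33 under the covariate (limma adjusted p = 0.12). Cyp1a2 did not pass the test, and the 95% interval of its difference was -0.15 to 0.35.

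Of 17 glucuronidation and sulfation genes tested, 8 fell and 2 rose, with 5 and 0 in both fits. Slc26a1, a sulfate carrier, fell by 1.10 ± 0.11, and the sulfotransferase genes Sult1e1 and Sult1c3 by 0.95 ± 0.14 and 0.81 ± 0.12. Ugt2b1, a glucuronosyltransferase, had 24539, 21823, 19585, 25184 and 30971 in 5000 µM wells and 37573, 42216, 35228, 46394 and 43273 in 500 µM wells. Its groups did not overlap, and it fell by 0.76 ± 0.10.

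Targets of NRF2, the factor that senses electrophiles through KEAP1, did not rise at the higher dose in both fits. Of 28 tested, 12 fell and 3 rose, and in both fits 11 fell and 0 rose. Akr1b8, an aldo-keto reductase, fell by 1.23 ± 0.13, Me1, a source of cytosolic NADPH, by 0.87 ± 0.09, and Abcc3, a conjugate export pump, by 0.76 ± 0.10. Hmox1, which degrades haem, fell by 0.31 ± 0.08. Nqo1, a quinone reductase, did not pass the test, with a difference of 0.13 and a 95% interval of -0.02 to 0.28. Gclc, the catalytic subunit of the first step of glutathione synthesis, did not pass either, with -0.03 and an interval of -0.16 to 0.10. Its other probe set gave 0.33. Glutathione transferases were mixed, with 8 of 24 higher and 5 lower, and 5 and 4 in both fits. Over all genes, 19.4% were higher and 28.2% lower. Gstm7 rose by 0.69 ± 0.10 and Gsta4, which acts on lipid aldehydes, by 0.50 ± 0.06. Gstz1, also an enzyme of tyrosine breakdown, fell by 0.66 ± 0.07. Gstt3 rose by 0.50 ± 0.14, and its value with the covariate was 0.50 (limma adjusted p = 0.072).

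**Figure D4:**
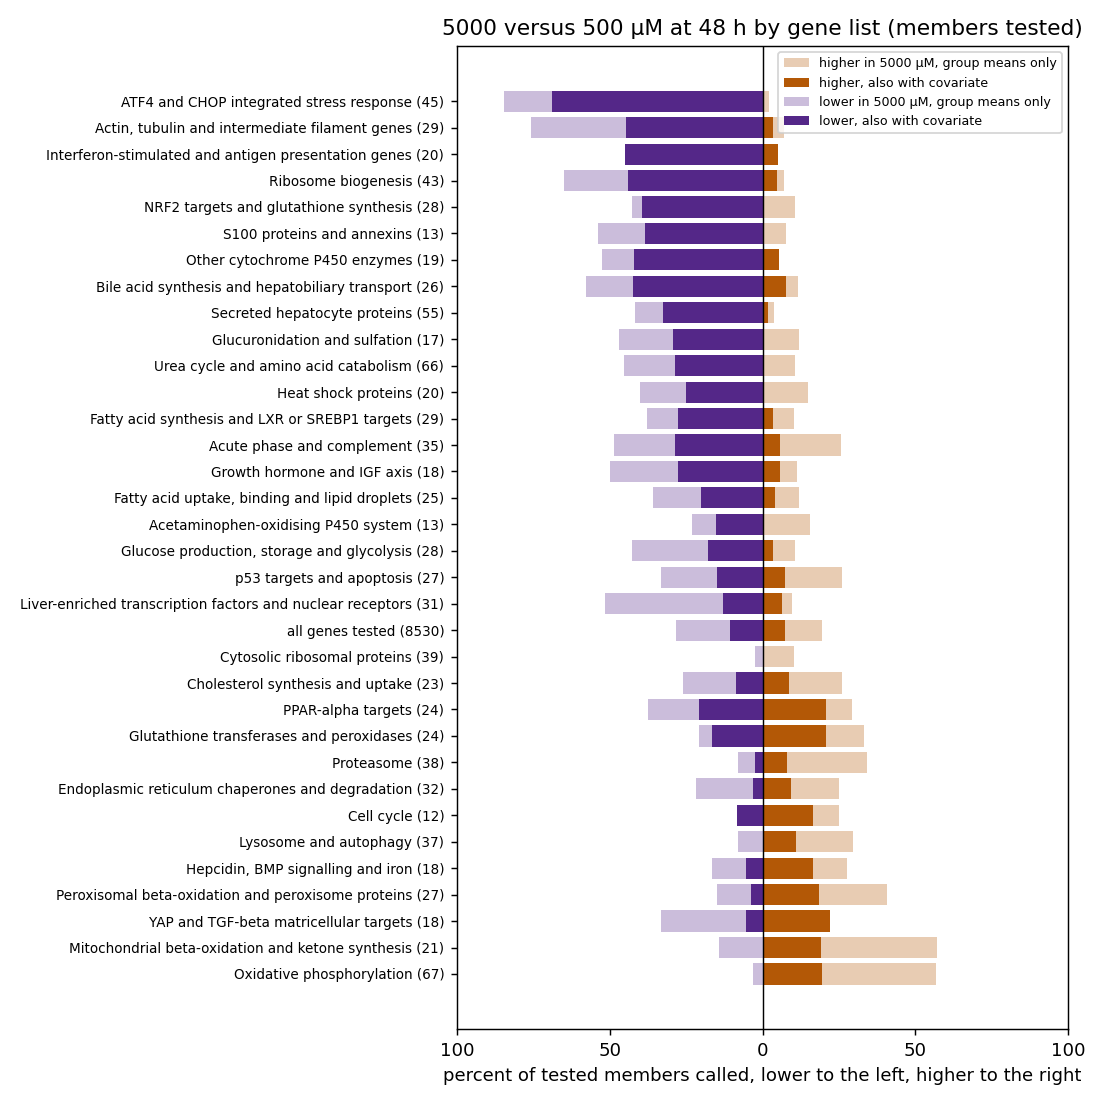
Percent of the tested members of each gene list that were called lower (left) or higher (right) in 5000 µM than in 500 µM wells at 48 h, pale by group means alone and dark where also called with the β-actin ratio as covariate. The number tested is in brackets. The integrated stress response list reached furthest to the left, with 38 of 45 lower, and oxidative phosphorylation had 38 of 67 higher but 13 in both fits.

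In amino acid breakdown and sugar handling more members fell than rose, though most of the sugar genes were not called lower. Of 66 tested genes of the urea cycle and amino acid catabolism, 30 fell and 7 rose, and in both fits 19 fell and 0 rose. Gpt, alanine aminotransferase, had 3551, 2898, 2374, 2605 and 2296 in 5000 µM wells and 6494, 7698, 8816, 7809 and 5168 in 500 µM wells, and it fell by 1.39 ± 0.13. Hal, which starts histidine breakdown, fell by 1.16 ± 0.09, and Hao1, glycolate oxidase, by 0.58 ± 0.13, with -0.89 for Hao1 under the covariate. Gldc, of the glycine cleavage system, fell by 1.39 ± 0.16 on its brightest probe set, while another of its probe sets was called in the opposite direction (1.32). With the covariate its value was -0.73, and with the mean of its probe sets it was not called (-0.28).

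Of 28 glucose genes tested, 12 fell and 3 rose, with 5 and 1 in both fits. Pck2, the mitochondrial form of phosphoenolpyruvate carboxykinase, fell by 1.32 ± 0.14, and Tkfc, a kinase of fructose breakdown, by 1.29 ± 0.13, although its other probe set gave 0.14. Gys2, liver glycogen synthase, had 5572, 5121, 5361, 5664 and 5152 in 5000 µM wells and 11651, 5954, 11901, 13009 and 11689 in 500 µM wells, and it fell by 0.96 ± 0.14. A single 500 µM array, at 5954, lay near the 5000 µM arrays. Pc, pyruvate carboxylase, fell by 0.95 ± 0.17, with -0.28 under the covariate (limma adjusted p = 0.29).

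The PPARα targets, which serve fatty acid oxidation, moved in both directions. Of 24 tested, 9 fell and 7 rose, with 5 and 5 in both fits, and the median difference was -0.06. Against vehicle, 16 rose and 3 fell in 5000 µM wells and 16 rose and 0 fell in 500 µM wells; both contrasts use the same vehicle arrays. Over all genes, 14.6% rose in 5000 µM wells and 24.0% in 500 µM wells. Ehhadh, a peroxisomal oxidation enzyme, had 7026, 6735, 6946, 9809 and 8661 in 5000 µM wells and 7987, 8346, 9086, 10310 and 7693 in 500 µM wells. The doses overlapped, with a difference of -0.16 and a 95% interval of -0.41 to 0.09, and both lay above the vehicle wells (log2 difference 1.81 in 5000 µM wells and 1.97 in 500 µM wells). Cpt1a, the entry step of mitochondrial oxidation, gave 0.01 with an interval of -0.19 to 0.22, and its other probe set gave 0.35. Pdk4, a kinase that shuts off pyruvate oxidation, gave -0.17 with an interval of -0.32 to -0.01 and did not pass the adjusted test (limma adjusted p = 0.073), while its other probe set was called higher (0.47).

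Single PPARα targets differed between the doses. Angptl4, an inhibitor of lipoprotein lipase, had 20525, 23081, 22466, 20205 and 22474 in 5000 µM wells and 14455, 14185, 15402, 14882 and 14672 in 500 µM wells, a rise of 0.56 ± 0.06. Slc22a5, the carnitine carrier, rose by 0.55 ± 0.06, and Cyp4a1, a fatty acid ω-hydroxylase, by 0.40 ± 0.11, or 0.27 with the covariate (limma adjusted p = 0.26). Fabp1, the liver fatty acid binding protein, had 8599, 7707, 8029, 7954 and 6881 in 5000 µM wells and 11777, 11775, 10987, 12297 and 11317 in 500 µM wells, and it fell by 0.57 ± 0.06. Crot, a peroxisomal carnitine acyltransferase, rose by 0.47 ± 0.05, whereas Acox2, an oxidase of branched chains and bile acid precursors, fell by 0.76 ± 0.10, with -0.48 under the covariate.

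Of 29 tested genes of fatty acid synthesis or targets of LXR or SREBP1, 11 fell and 3 rose, with 8 and 1 in both fits. Scd2, a stearoyl-CoA desaturase, fell by 1.47 ± 0.17, but its 3 other probe sets spanned -0.10 to 0.38. Lpin1, a phosphatidate phosphatase, fell by 1.09 ± 0.12 and Acaca, acetyl-CoA carboxylase 1, by 0.88 ± 0.09. Their values with the covariate were -0.55 and -0.62. Fabp5, a fatty acid binding protein, had 7295, 7548, 6259, 6462 and 7025 in 5000 µM wells and 13828, 13277, 13180, 11463 and 14618 in 500 µM wells, and it fell by 0.94 ± 0.09. The lipid droplet proteins Cideb and Plin3 fell by 0.72 ± 0.10 and 0.54 ± 0.09, with -0.57 and -0.35 under the covariate.

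Secreted proteins and complement components were lower where they differed, with exceptions. Of 55 secreted hepatocyte proteins, 23 fell and 2 rose, and in both fits 18 fell and 1 rose. The apolipoprotein gene Apoc4 fell by 0.77 ± 0.07, Itih2, an inter-α-trypsin inhibitor chain, by 0.79 ± 0.11, and F5, coagulation factor V, by 0.75 ± 0.11. With the covariate Itih2 gave -0.42 and F5 -0.36, both called. Apoa5, an apolipoprotein that lowers triglycerides, fell by 0.44 ± 0.07. Alb, albumin, did not pass the test, with a 95% interval of -0.16 to 0.32 around 0.08. Of 35 acute phase and complement genes, 17 fell and 9 rose, and in both fits 10 fell and 2 rose. C9, a pore-forming complement protein, had 2825, 2492, 2356, 2118 and 1763 in 5000 µM wells and 5967, 5623, 5779, 5116 and 5506 in 500 µM wells, and it fell by 1.29 ± 0.09. Mbl2, a mannose-binding lectin, fell by 1.06 ± 0.06 and C1s, a protease of the classical pathway, by 1.06 ± 0.06.

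Interferon-stimulated genes that differed were mostly lower in 5000 µM wells. Of 20 tested, 9 fell and 1 rose, and the counts in both fits were also 9 and 1. Rsad2, the antiviral protein viperin, had 908, 626, 549, 878 and 734 in 5000 µM wells and 2541, 1954, 1781, 1566 and 2168 in 500 µM wells, and it fell by 1.44 ± 0.18. Isg15, a ubiquitin-like modifier, fell by 0.97 ± 0.18, Ifit2 by 0.86 ± 0.08 and Mx2, a dynamin-like GTPase, by 0.95 ± 0.20. Another Mx2 probe set gave 0.15, and with the mean of both Mx2 was not called (-0.40). A core of the interferon-stimulated response element, GAAA, any 2 bases and GAAA again, was searched on both strands in the same 250 bases. It was found in 9 of the 15 tested members with a promoter (60%), and in 4 of the 5 that fell in both fits, against 3.29% of all promoters and 2.53% of those of tested genes. Since the list was written as interferon-stimulated and antigen presentation genes, this share describes the list and is no test of these data. The sequence of the member with the largest fall is shown, with the match in capitals.
Rsad2 (chr6:48788223-48788302, minus strand): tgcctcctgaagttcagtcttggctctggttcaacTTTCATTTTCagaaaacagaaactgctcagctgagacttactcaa

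Oxidative phosphorylation had the largest number of members higher by group means, and it was also the list with most members tested. Its share, 56.7%, lay beside the 57.1% of mitochondrial fatty acid oxidation and ketone synthesis, against 19.4% of all genes. Only part of these calls held with the covariate. Of 67 oxidative phosphorylation genes tested, 38 rose and 2 fell (median 0.15), but in both fits 13 rose and 0 fell. Over all genes, 7.47% rose in both fits. The median with the covariate was 0.12. With arrays centred on their medians 9 rose and the median was 0.065, and with quantile normalization 30 rose and it was 0.090. Ndufb10, a complex I subunit, had 19474, 20118, 18680, 18264 and 19161 in 5000 µM wells and 12035, 12436, 12546, 12484 and 12590 in 500 µM wells, a rise of 0.62 ± 0.05. Ndufv3 rose by 0.59 ± 0.06 and Ndufa8 by 0.44 ± 0.06, both of complex I as well. With the covariate Ndufa8 gave 0.29. Against vehicle, 6 members rose and 5 fell in 5000 µM wells, and 2 rose and 37 fell in 500 µM wells. Over all 8530 genes, 1243 rose and 1536 fell in 5000 µM wells, and 2044 rose and 1588 fell in 500 µM wells. With the covariate, 7 members rose and 6 fell in 5000 µM wells. In 500 µM wells 0 of the 67 were then called by limma (13 at an unadjusted p under 0.05). Over all genes that fit called 3026 in 5000 µM wells and 339 in 500 µM wells. Calls in 500 µM wells were thus few, and 0 of 67 does not by itself set this list apart. The vehicle arrays are shared by both contrasts, and their β-actin ratios lay with those of the 5000 µM arrays.

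The proteasome list held 13 members higher and 3 lower of 38, with 3 and 1 in both fits. Over all genes, 19.4% were higher and 28.2% lower, and 7.47% and 10.6% in both fits. Psmd10, a chaperone of proteasome assembly, rose by 0.71 ± 0.07, and Psma2, a core subunit, by 0.48 ± 0.07, with 0.31 for Psma2 under the covariate. Of 37 lysosome and autophagy genes, 11 rose and 3 fell, with 4 and 0 in both fits. Neu1, a sialidase, rose by 0.75 ± 0.09, with 0.44 under the covariate, and Hexa, a β-hexosaminidase subunit, by 0.45 ± 0.06. The 31 liver-enriched transcription factors went the other way, with 16 lower and 3 higher by group means and 4 and 2 in both fits. The p53 target and apoptosis genes lay near the shares of all genes, with 9 of 27 lower and 7 higher, and 4 and 2 in both fits. Ccng1 and Aen, a cyclin and a nuclease induced by p53, fell by 0.92 ± 0.08 and 0.95 ± 0.08. Cdkn1a, the cell cycle inhibitor p21, fell by 0.77 ± 0.14, with -0.26 under the covariate (limma adjusted p = 0.24). Its other probe set gave 0.01. Cryab, a small heat shock protein, rose by 0.31 ± 0.10 by group means, with 0.22 under the covariate (limma adjusted p = 0.30). Slc39a14, a zinc and iron carrier, fell by 0.56 ± 0.08, while its other probe set gave 0.16 and the mean of both was not called (-0.20).

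Some large differences without overlap were no longer called with the covariate. Entr1, a protein of endosomal trafficking, had 1356, 1457, 1433, 1673 and 2126 in 5000 µM wells and 488, 637, 352, 748 and 917 in 500 µM wells, a difference of 1.41 ± 0.27 by group means. With the covariate it was 0.21 (limma adjusted p = 0.62). Tti2 and Actr2-ps1 moved likewise, with 1.31 and 1.30 by group means and 0.25 and -0.02 with the covariate. Olr59 gave -1.54 and -0.73, Bdh1 -1.30 and -0.79, and Arhgef7 -1.29 and -0.52. By group means, other probe sets spanned 0.11 to 0.43 for Tti2 and -0.02 to 0.35 for Arhgef7, and that of Bdh1 gave -1.91.

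The 24 h wells gave an independent set of arrays for the same 2 doses. There the β-actin ratio averaged 1.37 ± 0.220 in 5000 µM wells and 1.61 ± 0.329 in 500 µM wells (SD, n = 5 each, unpaired exact permutation p = 0.278), and the groups overlapped. The ratio was still lower at 5000 µM, as at 48 h, in 5 of the 5 rounds of the serial number in the titles. At 24 h, 2659 genes were called (31.2%), 1437 higher (16.8%) and 1222 lower (14.3%). Of the 48 h calls, 1559 were called in the same direction at 24 h, which is 38.4% of the 48 h and 58.6% of the 24 h calls, and 120 in the opposite direction. Of the 1541 genes called in both fits at 48 h, 955 were called in the same direction at 24 h (62.0%) and 25 in the opposite direction. The ratio had a gap, between 1.54 and 1.74, with 4 of the 24 h arrays of 5000 µM and 2 of 500 µM below it. A fit on those 4 against 2 arrays, added after the data were seen, called 1903 genes (22.3%), 1050 higher (12.3%) and 853 lower, and 737 of the 1541 were called by it in the same direction.

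The stress response members fell at 24 h also, with 28 lower and 1 higher of 45 (median -0.33), and 19 lower and 1 higher on the arrays below the gap. Inhbe fell by 2.77 at 24 h, Trib3 fell by 0.92, Fgf21 fell by 1.63 and Hamp rose by 1.69. Hist4h4 rose by 1.46 and Hexim1 by 1.45. Oxidative phosphorylation, in contrast, had 1 member higher and 16 lower at 24 h, and the cytoskeleton list 0 higher and 7 lower. The ribosome biogenesis list had 1 higher and 15 lower. The difference between times was itself called for 1851 genes (21.7%).

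**Figure D5:**
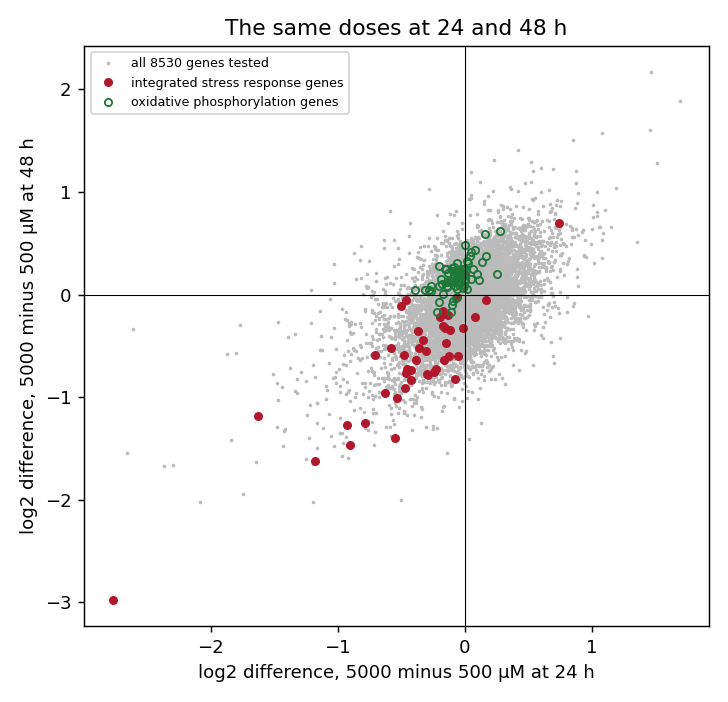
The log2 difference of 5000 minus 500 µM at 24 h (horizontal) and at 48 h (vertical) for the 8530 tested genes (grey), with the integrated stress response list as filled and the oxidative phosphorylation list as open points. The 2 times share no arrays. Inhbe lies at the lower left (-2.77 at 24 h, -2.98 at 48 h), and oxidative phosphorylation lies above 0 at 48 h (median 0.15) and about 0 at 24 h (median -0.07).

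Set beside vehicle at 48 h, the 2 doses lay on different sides for the stress response by group means. Among its members, 1 rose and 28 fell in 5000 µM wells (median -0.36), and 24 rose and 0 fell in 500 µM wells (median 0.24). With the covariate, 1 rose and 29 fell in 5000 µM wells (median -0.36), while 4 rose and 0 fell in 500 µM wells (median 0.24), so most calls on the 500 µM side were lost. Over all genes, 2779 were called in 5000 µM wells (32.6%) and 3632 in 500 µM wells (42.6%), with shared vehicle arrays. With the covariate the count was 3026 in 5000 µM wells and 339 in 500 µM wells. Inhbe differed from vehicle by -2.80 in 5000 µM wells and 0.18 in 500 µM wells, and the 500 µM value did not pass the test (limma adjusted p = 0.23). Cyp7a1 gave -1.28 in 5000 µM wells and 0.75 in 500 µM wells, both called, but with the covariate the 500 µM value was 0.37 (limma adjusted p = 0.47). Hamp gave 1.95 in 5000 µM wells and 0.06 in 500 µM wells, the 500 µM value not called. S100a6 lay below vehicle at both doses, with -2.71 in 5000 µM wells and -1.24 in 500 µM wells, and Apoa5 did so with -1.38 in 5000 µM wells and -0.94 in 500 µM wells.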

How the data were processed

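The authors deposited 1 linear signal intensity per probe set. The submitters' processing notes name MAS5 with no version, and no source used here gives its scaling target. The 2% trimmed mean was 1500 on every array, so signals had been scaled per array before deposit. No columns of other series were present. Values were taken to log2 unchanged. Of 31099 probe sets, 57 were controls, 20826 had 1 gene symbol in the platform annotation, 436 several and 9780 none. Symbols were updated through Entrez identifiers to RefSeq (20758 matched). Each of 14217 genes was represented by its brightest probe set, and the brightest 60% (8530 genes, geometric mean signal of at least 469) were tested in R 4.3.3 with limma 3.58.1, in 1 model with 6 group means over 30 arrays (24 residual and 7.58 prior degrees of freedom, intensity trend). Groups came from the sample titles. On simulated data for the comparison of 5000 with 500 µM at 48 h (8530 genes), the fit recovered 78% of genes changed by 0.5 and 99% of those changed by 1 on the log2 scale, and with the covariate 41% and 94%. The simulation changed far fewer genes than were called in the data and held no effect of the ratio. Its recoveries therefore need not hold for the data.

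The genes named were the 12 largest rises and 12 largest falls among genes called with and without the β-actin covariate, with arrays that did not overlap and no other probe set called the opposite way (1274 genes qualified), the 3 largest rises and 3 largest falls lost with the covariate, up to 4 called members per list, and 24 fixed genes. The gene lists numbered 38 (1276 distinct genes, 1105 on the array), 5 of them cell markers. The comparison, lists and genes were chosen with earlier results of these data known. Alternatives covered covariates, normalization, probe set choice, filter, pseudocount, trend and each array left out, and 2 settings based on the gap in the β-actin ratio and a block by round of the title's serial number were added after seeing the data. Promoters are those of RefSeq on GRCr8.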

Additional observations from a re-analysis of the deposited data

Results flagged for a closer look

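Single arrays stood apart from the other 4 of their group for 14 of 254 combinations of gene and dose, where chance gives about 1 in 20. The gap to the nearest array as a share of the group's range is given in brackets. In 5000 µM wells these were Inhbe (highest array, 0.885), Cyp2c12 (lowest array, 0.75), Bdh1 (lowest array, 0.809), Gclc (lowest array, 0.763) and Hexa (highest array, 0.853). In 500 µM wells these were Gucy2c (highest array, 0.719), Gmnn (lowest array, 0.767), LOC102555217 (lowest array, 0.767), Gys2 (lowest array, 0.859), Cdkn1a (highest array, 0.825), Ndufb10 (lowest array, 0.728), Ndufv3 (highest array, 0.936), Ndufa8 (lowest array, 0.908) and Psma2 (lowest array, 0.758). Gys2 read 5954 on 1 array of 500 µM wells, against 11651 to 13009 on the other 4, and Cdkn1a read 12165, against 6327 to 7094. No call on a gene named here was lost when 1 array was left out.

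The difference of 5000 minus 500 µM changed between 24 and 48 h, by a limma test of that difference at an adjusted p under 0.05, for 56 of the 127 genes named. Over all 8530 genes it did so for 1851 (21.7%), for 905 with the β-actin covariate and for 750 with centred arrays. Most of the 127 genes were named for large differences at 48 h, and this choice favours a larger difference at 48 h than at 24 h. Values in brackets are the log2 difference at 48 h minus that at 24 h, without the covariate. Genes lower in 5000 µM wells at 48 h, and further down at 48 h than at 24 h, were Arhgef2 (-0.83), Cyp2c12 (-1.49), Gucy2c (-0.46), Slc7a1 (-0.44), Aldh1l2 (-0.56), Slc7a11 (-0.85), Tars1 (-0.41), Utp20 (-0.95), Heatr1 (-0.58), Tagln2 (-0.63), Flna (-1.05), Zyx (-0.78), Tpm4 (-0.59), S100a6 (-0.75), Anxa3 (-0.41), Cyp3a18 (-0.66), Cyp2d2 (-0.58), Slc26a1 (-0.52), Me1 (-0.37), Gpt (-0.84), Pck2 (-0.56), Itih2 (-0.52), F5 (-0.41), C9 (-0.99), C1s (-0.50), Fabp5 (-0.45), Lpin1 (-0.67), Cdkn1a (-0.54), Ccng1 (-0.90) and Aen (-0.76). Genes higher in 5000 µM wells at 48 h, and further up than at 24 h, were LOC100912031 (0.66), Slc35a3 (0.67), Cxcl1 (1.15), LOC102555217 (0.58), Adipor2 (0.61), Tti2 (1.08), Gstm7 (0.40), Gsta4 (0.45), Id2 (0.69), Cryab (0.38), Ndufb10 (0.35), Ndufv3 (0.44), Ndufa8 (0.36) and Psma2 (0.40). The remaining genes were Poteml2 (0.69), Hsd3b5 (0.63), Cyp2a2 (0.86), Cyp4f4 (0.31), Gstt3 (0.67), Hao1 (1.29), Fabp1 (1.23), Ehhadh (0.98), Cyp4a1 (1.27), Cpt1a (-0.67), Pdk4 (-0.64) and Acox2 (0.53). Among these, Fabp1 gave -0.57 at 48 h and -1.80 at 24 h, and Hao1 -0.58 and -1.87. Cyp4a1 rose at 48 h (0.40) and fell at 24 h (-0.87), and Cyp2a2 did likewise (0.34 and -0.52). Cpt1a gave 0.01 at 48 h and 0.68 at 24 h.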

How the results depend on the processing

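The titles carry a serial number that runs through the 6 groups in 5 rounds, and no label says that a round is shared. Arrays of the 2 doses at 48 h deviated together above a correlation of 0.1 in 3 of 5 rounds, and 6 of 10 arrays correlated best with their own round. The main fit did not pair the rounds, for want of a label, and whether arrays of a round belong together was not tested. With the round as a replicate block, added after the data were seen, 4212 genes were called at 48 h and 2827 at 24 h, and of the genes named the call changed for Pdk4 alone (-0.17, limma adjusted p = 0.026). At 24 h the β-actin ratio was lower in 5000 than in 500 µM wells in 5 of 5 rounds. The count of genes called at 48 h, 4064, was 3613 to 3999 with 1 array left out, and lay between 3099 and 4118 under the other alternatives that leave RNA quality aside. It was 1782 with the β-actin covariate, 1763 with the GAPDH covariate and 2021 with the side of the gap in the β-actin ratio as a block. The count for 500 µM against vehicle, 3632, was 339, 507 and 484 in the same order of settings. The difference between times, 1851, was 905, 653 and 1043, and 750 with arrays centred on their medians. On simulated data without any effect of the ratio, recovery was lower with the covariate. In the real data its errors were larger as well (median 0.13, against 0.10). Why calls were lost with the covariate was not tested. Centring moved the median of all genes to -0.13. The differences in 3′ over 5′ ratio, with 1 array left out, spanned -0.68 to -0.61 for β-actin and -0.20 to -0.15 for GAPDH.

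The integrated stress response list had 32 to 39 members lower under every alternative run and the ribosome biogenesis list 20 to 28, while the cytoskeleton list had 13 to 22 and 9 to 40 oxidative phosphorylation genes were higher. Of the 127 genes named, 17 calls were lost with the β-actin covariate, 16 with the GAPDH covariate, 14 with the block, 4 with centred arrays, 3 with probe sets averaged per gene and 1 with the 10 arrays alone, where Cryab kept its value of 0.31 (limma adjusted p = 0.052). Pdk4 was called without replicate 5 of the 500 µM wells (-0.20, limma adjusted p = 0.038). Among these, a single called gene changed sign, Actr2-ps1 (-0.017 with the β-actin covariate). The other changes of sign were of uncalled genes near 0. Nqo1 was -0.057, -0.043 and -0.0037 with the β-actin covariate, the GAPDH covariate and the block. In the same settings Gclc was 0.129, 0.053 and 0.089, and Ehhadh was 0.060, 0.104 and 0.00076. With probe sets averaged Gclc was 0.153 and Pdk4 0.152. With centred arrays Alb was -0.010 and Cpt1a -0.075, and with quantile normalization Alb was -0.041. With 1 array left out, Cpt1a spanned -0.016 to 0.055, Gclc -0.043 to 0.010, Alb -0.012 to 0.169 and Atf4 -0.057 to 0.0054. Signal over background was not assessed, since no detection calls were used, and genes under the brightness filter were not tested.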

Other observations

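Further lists described other parts of hepatocyte function, given here as counts of genes in 5000 against 500 µM wells at 48 h. Over all genes, 19.4% were higher and 28.2% lower, and 7.47% and 10.6% in both fits. No list was tested against these shares. Mitochondrial fatty acid oxidation and ketone synthesis had 12 of 21 tested genes higher and 3 lower, with 4 and 0 in both fits, and peroxisomal genes 11 of 27 higher and 4 lower, with 5 and 1. Fatty acid uptake and lipid droplet genes had 3 of 25 higher and 9 lower, with 1 and 5 in both fits. Genes of the growth hormone and IGF axis had 2 of 18 higher and 9 lower, with 1 and 5. Heat shock proteins had 3 of 20 higher and 8 lower, with 0 and 5, whereas endoplasmic reticulum chaperones had 8 of 32 higher and 7 lower, with 3 and 1. Cholesterol synthesis genes were split evenly, with 6 of 23 higher and 6 lower (26.1% each), near the shares of all genes, and 2 and 2 in both fits. Of the iron and BMP list that holds Hamp, 5 of 18 genes were higher and 3 lower, with 3 and 1. Of 12 tested cell cycle genes, 3 were higher and 1 lower, with 2 and 1, and 25 of the 37 on the array were too dim to test.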
